A study of Mus musculus with 6 samples.

Results

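The data described here are 10 genes of glucose breakdown and lactate handling, Hk1, Hk2, Pfkp, Pfkfb3, Aldoa, Aldoc, Pgk1, Ldha, Ldhb and Slc16a3, among 27514 gene identifiers that the cortical (31053) and hippocampal (27998) gene lists have in common. They were taken as listed, by gene symbol, joined between the regions by Ensembl identifier, and described as the choice between isoforms in each cell class. All 10 genes were found in both regions, and all 10 had the 20 UMIs asked of a gene in each of the 3 largest cell classes.

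Single-cell RNA sequencing had been carried out to see which cells of the mouse brain an isolation without prior sorting would yield. The cortical preparation came from female C57Bl/6J mice aged 3 weeks and the hippocampal preparation from female C57Bl/6J mice aged 5 weeks, wild type in both. In each, tissue of 3 perfused mice was freed of white matter, digested with dispase II, papain and DNase I and cleared of myelin with Percoll, and the pooled cells were run as 3 technical replicates. There was thus 1 biological sample per region in 6 libraries, no test between regions was possible, and region, age and preparation cannot be told apart. The isolation at another age was not analysed here.

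Glycolysis turns glucose into pyruvate in a fixed series of steps, most of which can be run by more than one enzyme, each from its own gene. Hexokinases trap glucose in the cell, phosphofructokinase is the main point of control, aldolase splits the sugar, and lactate dehydrogenase exchanges pyruvate with lactate, which monocarboxylate transporters carry across the membrane. In the brain, astrocytes are known for aldolase C, and endothelial cells of the blood-brain barrier for the glucose transporter Slc2a1 and the lactate transporter Slc16a1.

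The libraries held 39662203 to 42097490 unique molecular identifiers (UMIs, 1 per counted RNA molecule) in the cortex and 43963706 to 50024850 in the hippocampus. After filtering, 13318 cortical and 14209 hippocampal cells remained, of which 71 and 747 had a barcode also found in another library of their region. Of all cells that passed the filters, 762 and 551 were called as doublets at an assumed rate and were not removed. Clusters were made without the 10 genes or the pathway genes below and named from marker lists. 6 classes with at least 100 cells in each region were compared, and all matched markers of each class were above 0 in it. They were microglia-like (6168 cortical and 5898 hippocampal cells), macrophage-like (108 and 228), endothelial-like (2454 and 2134), pericyte-like (376 and 451), astrocyte-like (2710 and 1891) and neuron-like cells (122 and 597). In the cortical pericyte-like cells, endothelial markers stood at a median of 57.8% of their level in endothelial-like cells, and 58 of the 122 cortical neuron-like cells were classed as such by their own markers, so values of these classes are given for completeness. Levels are CPM, the UMIs of a gene per 1000000 UMIs of the class in a library, given as mean ± SD over the 3 technical replicates. The SD covers technical and counting error, and the 95% intervals cover counting error only. Neither covers the spread between animals. A UMI is counted once per molecule near its 3′ end and is not divided by gene length. Shares between isoforms are therefore shares of counted molecules, read by comparing one class with another.

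The genes lie at chr10:62268855-62379908 (Hk1), chr6:82725025-82774454 (Hk2), chr13:6579768-6648777 (Pfkp), chr2:11471433-11554077 (Pfkfb3), chr7:126795234-126800751 (Aldoa), chr11:78322968-78327781 (Aldoc), chrX:106187100-106203699 (Pgk1), chr7:46841475-46855627 (Ldha), chr6:142490249-142507957 (Ldhb) and chr11:120948480-120960868 (Slc16a3) of GRCm38. Hk1, Hk2, Pfkp, Pfkfb3, Aldoa and Ldhb are on the minus strand and the others on the plus strand. A gene on the opposite strand overlaps Hk1 (Hk1os), Hk2 (Gm17034), Pfkp (Pitrm1), Pfkfb3 (Gm10851) and Aldoa (Fam57b).

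The 250 bases before a RefSeq start site of Ldha, Ldhb and Hk2 are shown because the results turn on the choice between Ldha and Ldhb and on Hk2. Capitals mark the letters ACGTG on either strand (CACGT on the strand printed), a core that hypoxia-inducible factors and some E-box factors recognise. The 2 spellings overlap in CACGTG. Other spellings, among them GCGTG, were not searched, so a window without capitals may still hold a core.
Ldha, chr7:46845554-46845803, plus strand, GRCm38.p6: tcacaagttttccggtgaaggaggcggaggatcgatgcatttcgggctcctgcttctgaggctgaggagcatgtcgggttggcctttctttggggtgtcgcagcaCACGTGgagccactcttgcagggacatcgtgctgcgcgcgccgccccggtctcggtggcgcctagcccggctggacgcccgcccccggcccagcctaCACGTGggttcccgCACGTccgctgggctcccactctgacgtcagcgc
Ldhb, chr6:142507958-142508207, minus strand, GRCm38.p6: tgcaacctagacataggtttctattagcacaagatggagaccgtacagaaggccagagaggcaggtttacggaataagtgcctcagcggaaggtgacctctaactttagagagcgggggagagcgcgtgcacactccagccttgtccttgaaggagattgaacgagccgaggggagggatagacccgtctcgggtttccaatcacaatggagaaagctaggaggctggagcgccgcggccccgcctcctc
Hk2, chr6:82774455-82774704, minus strand, GRCm38.p6: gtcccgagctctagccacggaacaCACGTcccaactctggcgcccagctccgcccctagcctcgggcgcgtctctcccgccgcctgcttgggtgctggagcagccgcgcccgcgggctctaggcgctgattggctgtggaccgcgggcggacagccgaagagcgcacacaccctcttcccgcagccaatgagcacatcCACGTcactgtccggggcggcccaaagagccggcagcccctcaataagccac
Ldha has 2 promoters in RefSeq, and of these only the 1 shown held the letters. Its window held 5 matches, counting both strands, the Hk2 window 2 and the Ldhb window 0. Of all 32851 mouse promoters of this length in RefSeq, 5444 (16.6%) held the letters, as did 8 of the 16 promoters of the 10 genes. A match in letters is a description only.

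Across the classes, 4 of the 10 genes in each region were highest in 1 class, with at least 2 times the level of every other compared class and no overlap between libraries. Of all genes with at least 20 UMIs, 25.5% did so in the cortex and 30.5% in the hippocampus, so 4 of 10 was not far above the background. Hk2 was highest in microglia-like cells, as were 5.12% and 3.94% of all genes, and Pfkp and Aldoc in astrocyte-like cells, as were 9.5% and 5.38% of all genes, in both regions. Pfkfb3 in the cortex and Slc16a3 in the hippocampus were highest in microglia-like cells.

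**Figure D1:**
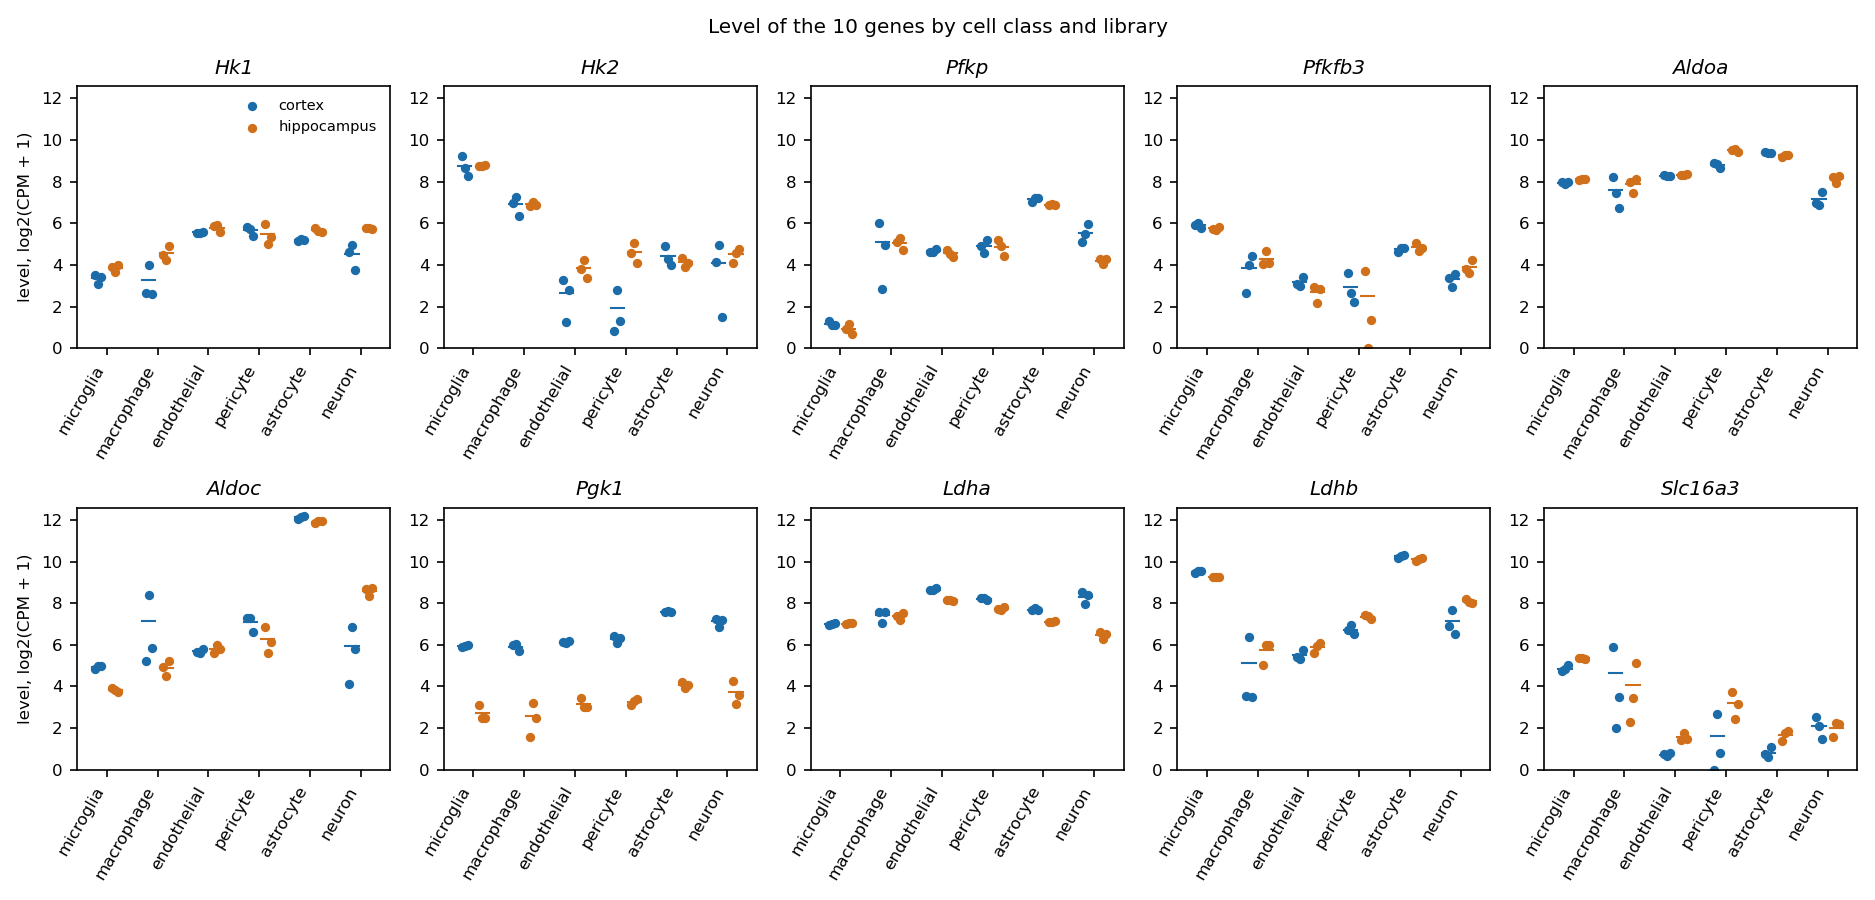
Level of each of the 10 genes, as log2(CPM + 1), in the 6 compared cell classes, with 1 point per technical replicate and a bar at the mean level, in blue for the cortex and orange for the hippocampus. Hk2 stood highest in microglia-like cells, at 438 CPM and 434 CPM, Aldoc in astrocyte-like cells, at 4475 CPM and 3865 CPM, and the hippocampal points of Pgk1 lay below its cortical points in every class.

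The hexokinases separated microglia-like cells from the other compared classes. Hk2, the inducible hexokinase, was at 607, 400 and 307 CPM in the 3 cortical libraries of microglia-like cells (438 ± 153) and at 437, 424 and 440 CPM in the hippocampal libraries (434 ± 8.1). The cortical libraries lay on both sides of the hippocampal ones. Macrophage-like cells, the other myeloid class among those compared, followed with 120 ± 35.7 and 119 ± 7.85 CPM. No library of theirs reached a microglia-like one.

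Outside the compared classes, monocyte/granulocyte-like cells held Hk2 at 70.7 CPM in the cortex (59 cells) and 93.3 CPM in the hippocampus (124 cells). These hippocampal cells had a median of 588.5 UMIs, and 82 of the 124 had a barcode shared between libraries, so their value rests on few counts. A cortical erythroid-like cluster of 248 cells held 105 CPM, and another of 94 cells 2.71 CPM. In the remaining compared classes Hk2 was scarce. Astrocyte-like cells held 20.7 ± 7.08 CPM in the cortex and 16.5 ± 2.7 CPM in the hippocampus, and endothelial-like cells 5.36 ± 3.66 and 13.5 ± 4.45 CPM. These 2 classes overlapped between libraries in the hippocampus and not in the cortex. The level in endothelial-like cells was 1.23% of that in microglia-like cells in the cortex and 3.13% in the hippocampus, where the 11 microglial markers stood at a median of 1.19% (0.989 to 1.62%) and 2.64% (2.36 to 3.13%) of their microglial level. In astrocyte-like cells Hk2 was at 4.77% and 3.8% of its microglial level, beside a median of 2.55% and 3.78% for the markers. The part of free microglial RNA or of doublets in these low levels was not tested.

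Hk1, the hexokinase of most brain cells, was lowest in microglia-like cells among the large classes. It was at 10.6, 7.57 and 9.62 CPM in the cortical microglia-like libraries (9.25 ± 1.53) and at 13.8, 11.5 and 14.8 CPM in the hippocampal ones (13.4 ± 1.71). Endothelial-like cells held 45.9, 46.0 and 46.8 CPM in the cortex (46.2 ± 0.503) and 57.4, 58.9 and 46.9 CPM in the hippocampus (54.4 ± 6.51). Astrocyte-like cells came next, with 35.7 ± 0.633 and 50.2 ± 3.92 CPM. They were apart from endothelial-like cells in the cortex, while hippocampal endothelial-like, neuron-like, astrocyte-like and pericyte-like libraries overlapped in sequence.

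Expressed as a share of the Hk1 and Hk2 UMIs, Hk2 made up 98.3, 98.1 and 97.0% in the cortical microglia-like libraries (97.8 ± 0.725%) and 96.9, 97.4 and 96.7% in the hippocampal ones (97.0 ± 0.321%). In macrophage-like cells the share was 93.7 ± 2.57% and 83.8 ± 3.98%, in astrocyte-like cells 36 ± 7.96% and 24.6 ± 2.05%, and in endothelial-like cells 10.1 ± 6.55% and 19.5 ± 3.63%. Without called doublets the astrocyte-like share fell to 20.6% and 9.57%, and the endothelial-like share to 2.52% and 3.65%, whereas the microglia-like share stayed at 97.9% and 97.1%. Hk3, another hexokinase known from myeloid cells, was at 48.9 and 51.3 CPM in microglia-like cells and at 47.7 and 41.5 CPM in macrophage-like cells.

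The same UMIs were also counted per cell, which is a description and not separate support. Only 4.94% of cortical and 8.56% of hippocampal microglia-like cells had a UMI of Hk1, so a cell with Hk2 alone was not shown to lack Hk1. Among microglia-like cells with a UMI of either hexokinase, 93.8% in the cortex and 90.3% in the hippocampus held Hk2 alone, and 5.19% and 8.62% held both. When every cell was thinned to 1000 UMIs, leaving out 75 and 20 shallower cells, 32.3% (Clopper-Pearson interval 31.1 to 33.4%) and 33.5% (32.3 to 34.7%) of microglia-like cells had a UMI of Hk2. These intervals take each cell as independent. They do not cover the spread between animals or between libraries, which for Hk2 was 1.97-fold in the cortex. The unthinned shares were 79.5% and 87.1%. In thinned endothelial-like cells, which serve as background, the shares were 0.285% and 0.733%, at unthinned medians of 6881 and 6586.5 UMIs per cell against 5472 and 6646 in microglia-like cells.

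**Figure D2:**
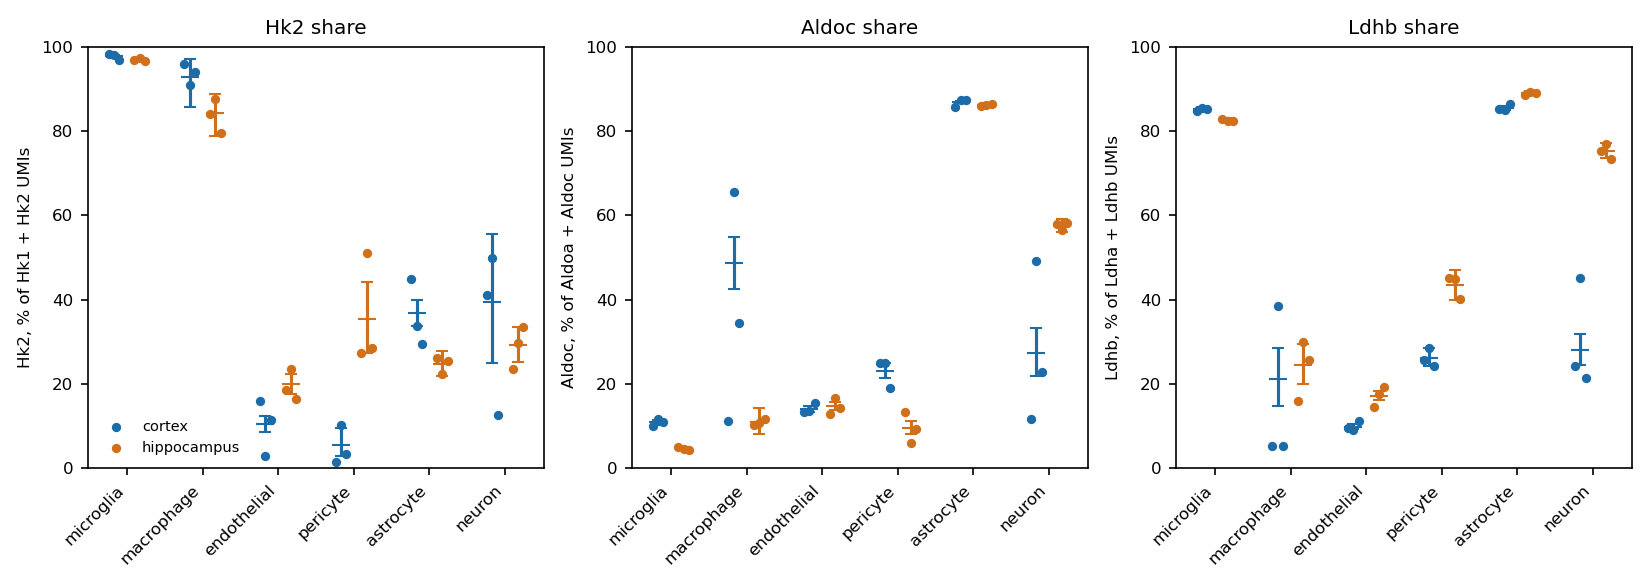
Share of Hk2 in the Hk1 and Hk2 UMIs, of Aldoc in the Aldoa and Aldoc UMIs and of Ldhb in the Ldha and Ldhb UMIs, in percent, by cell class and region, with 1 point per technical replicate and the pooled share with its exact 95% interval. Microglia-like cells stood near 100% for Hk2 (97.8% and 97.0%) and, with astrocyte-like cells, above 80% for Ldhb, while Aldoc was above 80% in astrocyte-like cells, at 86.9% and 86.3%.

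The spread of Hk2 over the cortical technical replicates was unusual. Its highest microglia-like library was 1.97 times its lowest, and 32 of the 6952 genes with at least 500 UMIs in these cells (0.46%) had a spread as wide, where the median gene differed 1.10-fold. In the hippocampus the factor was 1.04, a spread that 78.5% of genes reached. Each of the 5 cortical microglia-like clusters had its highest level in replicate 1 and its lowest in replicate 3. In the largest, of 2508 cells, the levels were 641, 417 and 309 CPM. The 3 replicates came from 1 suspension, and what set this spread was not tested. For Hk2 the log2 ratio of hippocampus over cortex in microglia-like cells was −0.01 with all libraries and 0.29 without cortical replicate 1, −0.08 without replicate 2 and −0.22 without replicate 3.

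**Figure D3:**
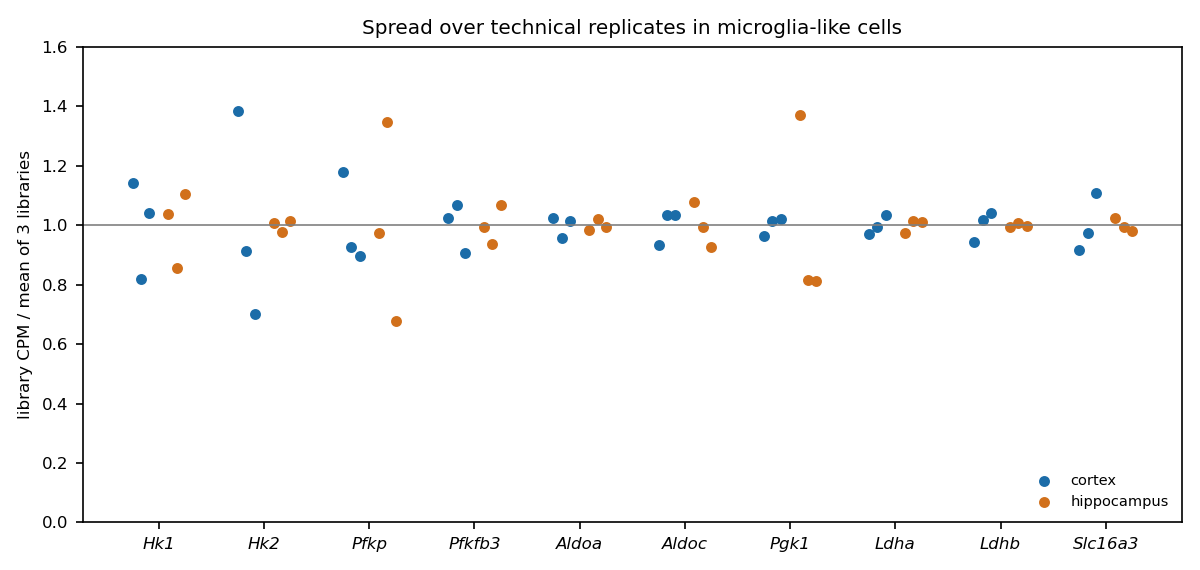
Level of each gene in microglia-like cells of a library divided by the mean over the 3 technical replicates of its region, in blue for the cortex and orange for the hippocampus. The cortical points of Hk2 were the most widely spread of the cortical points, with a highest library 1.97 times the lowest, while its hippocampal points lay together.

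Phosphofructokinase differed in all 3 of its isoforms between classes. Pfkp, the platelet-type subunit, was at 129, 149 and 150 CPM in the cortical astrocyte-like libraries (142 ± 11.8) and at 116, 122 and 118 CPM in the hippocampal ones (119 ± 2.82). In microglia-like cells it was at 1.26 ± 0.196 CPM, on 44 UMIs from 6168 cells, and at 0.912 ± 0.305 CPM, on 38 UMIs from 5898 cells. No library of any other compared class reached an astrocyte-like one or fell to a microglia-like one. The microglia-like level was 0.884% and 0.780% of the astrocyte-like level, beside 0.692% and 0.283% for the median of the 13 astrocyte markers.

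Endothelial-like cells held Pfkp at 24.6 ± 1.52 and 22.5 ± 2.81 CPM, between these extremes. Pericyte-like libraries overlapped with them in both regions, and so did macrophage-like libraries. Outside the compared classes, vascular smooth muscle cell-like cells held 80.9 CPM in the cortex and 76.8 CPM in the hippocampus, and the hippocampal epithelial-like cells 178 CPM.

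In microglia-like cells most of the counts came from Pfkl, the liver-type subunit, which made up 94.7 ± 2.13% of the Pfkl, Pfkm and Pfkp UMIs in the cortex and 94.3 ± 1.02% in the hippocampus. Endothelial-like cells also held mostly Pfkl, at 74.9 ± 1.52% and 75.6 ± 1.34%. Astrocyte-like cells divided their counts between Pfkm, the muscle-type subunit (42.6 ± 3.30% and 44.0 ± 1.77%), and Pfkp (41.1 ± 2.61% and 37.4 ± 1.17%), with Pfkl at 16.3 ± 1.12% and 18.6 ± 0.78%. The difference lay in Pfkm and Pfkp rather than Pfkl, whose level of 56.5 and 58.8 CPM in astrocyte-like cells was near the 66.5 and 58.9 CPM of microglia-like cells.

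**Figure D4:**
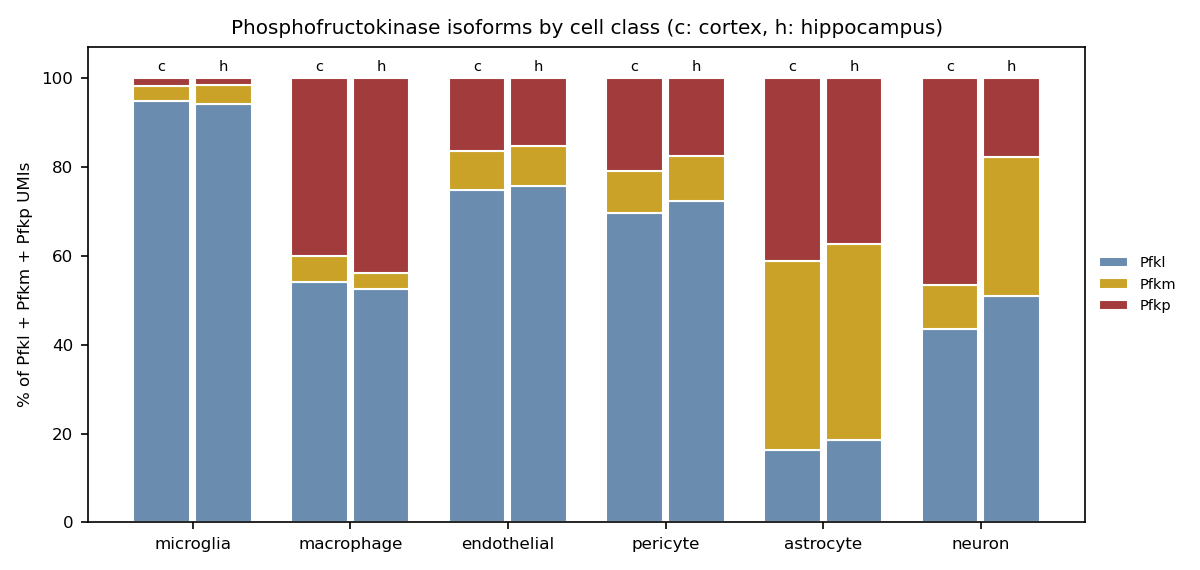
Pfkl, Pfkm and Pfkp as percent of their summed UMIs in the 6 compared cell classes, with 1 stacked bar for the cortex (c) and 1 for the hippocampus (h), pooled over the 3 technical replicates. Pfkl filled most of the bars of microglia-like (94.7% and 94.3%) and endothelial-like cells, while Pfkm and Pfkp shared those of astrocyte-like cells.

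Pfkfb3 makes the metabolite that switches phosphofructokinase on. It was at 60.3, 62.8 and 53.4 CPM in the cortical microglia-like libraries (58.8 ± 4.88) and at 52.5, 49.5 and 56.5 CPM in the hippocampal ones (52.8 ± 3.5). Astrocyte-like cells were next, with 25.9 ± 2.13 and 27.8 ± 3.55 CPM, which put microglia-like cells 2.27-fold higher in the cortex and 1.90-fold higher in the hippocampus. No library overlapped in either region, and only the cortical difference passed the 2-fold limit. Endothelial-like cells held 7.96 ± 1.48 and 5.43 ± 1.72 CPM.

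Of the UMIs of its family, Pfkfb1 to Pfkfb4, Pfkfb3 made up 65.0 ± 0.35% and 57.8 ± 2.54% in microglia-like cells and 28.9 ± 1.16% and 34.2 ± 2.12% in astrocyte-like cells. In the latter, Pfkfb4, another isoform, was the most counted at 52.8 and 40.9 CPM, and Pfkfb2 was at 11 and 12.4 CPM. The hippocampal microglia-like cluster with the highest summed level of immediate early genes (13960 CPM, against 4530 to 7610 CPM in the other 3) had Pfkfb3 at 73.8 CPM. Whether dissociation moved Pfkfb3 was not tested, and the cortical cluster at 18501 CPM held 59.6 CPM.

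The level of Aldoc divided astrocyte-like cells from the other compared classes. Aldoc, the brain-type aldolase, was at 4210, 4562 and 4651 CPM in the cortical astrocyte-like libraries (4475 ± 233) and at 3661, 3940 and 3996 CPM in the hippocampal ones (3865 ± 179). In microglia-like cells it was at 27.9, 31.0 and 30.9 CPM (29.9 ± 1.74) and at 14.3, 13.2 and 12.3 CPM (13.3 ± 0.998). The groups were far apart. The microglia-like level was 0.670% and 0.343% of the astrocyte-like level, beside a median of 0.692% and 0.283% for the 13 astrocyte markers, all of them above 0 and with a summed level of 337 and 256 CPM in microglia-like cells against 22815 and 24435 CPM in astrocyte-like cells. The part of astrocyte RNA in the microglia-like level was not tested.

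Endothelial-like cells held Aldoc at 50.7 ± 3.93 and 55.1 ± 8.19 CPM, 1.13% and 1.43% of the astrocyte-like level, beside marker medians of 0.947% and 0.980%. In hippocampal neuron-like cells it was at 415, 324 and 429 CPM (389 ± 57.4), 57.6% of the aldolase UMIs. That share fell to 6.78% when cells were classed by their own markers and to 14.4% when the 10 genes and the pathway genes were kept among the clustering genes, so it rested on which cells were called neuron-like.

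Aldoa, the aldolase found in nearly all tissues, varied far less between classes. It was at 696, 662 and 663 CPM in cortical astrocyte-like cells (674 ± 19.6) and at 592, 624 and 620 CPM in hippocampal ones (612 ± 17.7). Endothelial-like cells held 310 ± 5.87 and 321 ± 7.47 CPM and microglia-like cells 247 ± 9.07 and 276 ± 4.88 CPM. The 3 classes kept this order in both regions without overlap, and astrocyte-like cells thus had more of both aldolases. Pericyte-like cells were at 451 ± 36.2 CPM in the cortex and 729 ± 32.9 CPM in the hippocampus, where they stood above astrocyte-like cells, and hippocampal epithelial-like cells reached 1147 ± 170 CPM.

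As a share of the Aldoa and Aldoc UMIs, Aldoc made up 85.8, 87.3 and 87.5% in cortical astrocyte-like libraries (86.9 ± 0.94%) and 86.1, 86.3 and 86.6% in hippocampal ones (86.3 ± 0.24%). The endothelial-like share was 14.1 ± 1.14% and 14.6 ± 1.98%, and the microglia-like share 10.8 ± 0.83% and 4.58 ± 0.37%. The low shares fell without called doublets, to 9.10% and 5.97% for endothelial-like and to 7.77% and 4.21% for microglia-like cells. The mean shares of the other compared classes lay between those of microglia-like and astrocyte-like cells. Cortical macrophage-like libraries spread widely, at 11.1, 65.5 and 34.4%, and cortical pericyte-like cells held 22.9 ± 3.43%. Outside the compared classes, cortical erythroid-like cells held 69.0 ± 3.87%, on 342 cells of which 66 were called doublets. Hippocampal ependymal-like cells held 42.4 ± 4.40%, and hippocampal epithelial-like cells 3.67 ± 1.53%, below microglia-like cells. Of the astrocyte-like cells with a UMI of either aldolase, 89.7% and 84.6% held both. After thinning to 1000 UMIs, 96.6% and 89.0% of astrocyte-like cells had a UMI of Aldoc, against 2.17% and 1.31% of microglia-like cells.

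Pgk1, phosphoglycerate kinase, which makes the first ATP of the pathway, had a single widely used isoform and was described by class within each region. Among the compared classes of the cortex it was highest in astrocyte-like cells, at 190, 194 and 192 CPM (192 ± 2.07), followed by neuron-like cells at 138 ± 19 CPM. Endothelial-like cells held 69.5 ± 2.94 CPM, overlapping with pericyte-like cells, and microglia-like cells 60.5 ± 1.92 CPM, overlapping with macrophage-like cells. In the hippocampus astrocyte-like cells were again the highest of the compared classes, at 17.3, 14.3 and 16.0 CPM (15.8 ± 1.51), with endothelial-like cells at 7.91 ± 1.57 CPM and microglia-like cells at 5.61 ± 1.81 CPM. The order of the means was the same as in the cortex, while each class overlapped with its neighbour.

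Between regions Pgk1 was lower in the hippocampus in all 6 classes, by 8.77-fold in endothelial-like to 12.1-fold in astrocyte-like cells, with no overlap of libraries. Of all genes, between 6.44% in microglia-like and 30.9% in neuron-like cells differed at least 2-fold without overlap in either direction. The log2 ratios of the hippocampus over the cortex were −3.43 (exact interval −3.64 to −3.24) in microglia-like, −3.13 (−3.41 to −2.87) in endothelial-like and −3.60 (−3.81 to −3.39) in astrocyte-like cells. Of all genes compared, 0.291%, 0.330% and 0.307% had a lower ratio in these classes. The gene lists differ at this gene. A processed pseudogene, Pgk1-rs7 (chr12:10898986-10900240, GRCm38), is listed for the hippocampus and not for the cortex.

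The copy is identical to the Pgk1 transcript at all of its 1255 bases, up to base 1407 of 1825, so reads from that stretch fit both. Within the last 600 bases of the transcript, where 3′ counting reads, 123 of 541 windows of 60 bases (22.7%) also occur in the copy, and the other windows do not. The copy itself was given 17, 15 and 13 UMIs in the hippocampal libraries. A read that fits 2 listed genes equally well is usually not counted, but the part of this in the ratio was not tested, and the Pgk1 difference is given as a difference between files and not between regions.

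The other genes share less with listed copies. Aldoa shared 4.50% of its windows with Aldoart1, listed in both regions, and windows of Ldha (7.67%) and Ldhb (21.5%) occur in pseudogenes that neither list holds. Hk1, Hk2, Pfkp, Pfkfb3, Aldoc and Slc16a3 had no such window. A second identifier with the symbol Aldoa, found in the cortical list only, held 1, 0 and 1 UMIs and was left out.

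Among the 3 largest classes, the lactate dehydrogenases put endothelial-like cells on one side and astrocyte-like and microglia-like cells on the other. Ldha, the subunit of the isoenzyme known from muscle, was highest in endothelial-like cells, at 399, 390 and 419 CPM in the cortex (403 ± 14.7) and 281, 285 and 278 CPM in the hippocampus (281 ± 3.56). Astrocyte-like cells held 200, 216 and 203 CPM (206 ± 8.48) and 135, 135 and 141 CPM (137 ± 3.77), and microglia-like cells 126 ± 4.09 and 129 ± 2.88 CPM. These 3 classes did not overlap in either region. The difference between astrocyte-like and microglia-like cells was small in the hippocampus, where neuron-like cells were the lowest of the compared classes at 89.1 ± 10.1 CPM. The endothelial-like level was 1.27-fold above the next class, neuron-like, in the cortex. In the hippocampus it was 1.33-fold above the next class, pericyte-like. Both were short of 2-fold.

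Ldhb, the subunit of the isoenzyme known from heart, was highest in astrocyte-like and low in endothelial-like cells. It was at 1166, 1233 and 1286 CPM in cortical astrocyte-like libraries (1229 ± 60.1) and at 1044, 1129 and 1151 CPM in hippocampal ones (1108 ± 56.5). Microglia-like cells held 688, 742 and 759 CPM (730 ± 37.3) and 607, 617 and 610 CPM (611 ± 4.91). Endothelial-like cells held 41.5, 38.7 and 52.1 CPM (44.1 ± 7.07) and 47.5, 61.3 and 66.6 CPM (58.4 ± 9.86), and overlapped with macrophage-like cells at 34.3 ± 41.4 and 52.4 ± 18.3 CPM.

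The contrast within the myeloid cells was large. Microglia-like cells had far more Ldhb than macrophage-like cells, with no overlap between libraries, while both classes held Hk2. The endothelial-like level of Ldhb was 6.03% and 9.54% of the microglia-like level, above the 1.19% and 2.64% of the median microglial marker, and 3.59% and 5.27% of the astrocyte-like level, above the 0.947% and 0.980% of the median astrocyte marker. Hippocampal epithelial-like cells, of which there were 824 with a median of 875 UMIs and 556 with a barcode shared between libraries, held the most Ldhb of all named classes, at 1935 ± 192 CPM.

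Of the Ldha and Ldhb UMIs, Ldhb made up 84.9, 85.5 and 85.3% in cortical microglia-like libraries (85.2 ± 0.33%) and 82.9, 82.5 and 82.4% in hippocampal ones (82.6 ± 0.24%). In astrocyte-like cells it made up 85.4, 85.1 and 86.4% (85.6 ± 0.67%) and 88.6, 89.3 and 89.1% (89.0 ± 0.36%). In endothelial-like cells it made up 9.42, 9.03 and 11.1% (9.84 ± 1.08%) and 14.5, 17.7 and 19.3% (17.2 ± 2.47%). Microglia-like and astrocyte-like shares overlapped in the cortex and not in the hippocampus, and both were far above the endothelial-like share.

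The endothelial-like share was the least settled of these. Without called doublets it was 7.71% in the cortex and 12.4% in the hippocampus, and with cells classed by their own markers 13.4% in the cortex. One hippocampal endothelial-like cluster, of 270 cells with a median of 1437.5 UMIs, held Ldhb at 175 CPM and Hk2 at 122 CPM, well above the rest of its class. Its Ldhb share was 44.1%, and that of a cluster of 544 hippocampal cells led by Gkn3, Sema3g and Bmx 22.6%. The cortical clusters closest to endothelial cells that stayed unnamed, of 366 cells and of 239 cells led by Igfbp3, Gkn3 and Bmx, had shares of 64.9% and 24.9% and were left out, as was a hippocampal cluster of 178 cells led by Rgs5, at 25.4%. The largest endothelial-like cluster had a share of 9.80% in the cortex (2321 cells) and 12.2% in the hippocampus (1320 cells), and the region difference of the whole class cannot be told apart from which clusters it held. Oligodendrocyte-like cells held an Ldhb share of 42.0 ± 3.83% in the cortex, on 66 cells, and 82.0 ± 2.22% in the hippocampus, on 1076 cells, where Ldha was at 19.8 CPM, the lowest of the named classes.

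In single cells, 46.8% and 51.6% of the microglia-like cells with a UMI of either gene held both, and 51.1% and 45.9% held Ldhb alone. Of endothelial-like cells 74.6% and 69.9% held Ldha alone, and of astrocyte-like cells 60.4% and 48.7% held both. Thinned to 1000 UMIs, 49.3% and 43.4% of microglia-like cells had a UMI of Ldhb, against 3.30% and 4.15% of endothelial-like cells, and 29.8% and 23.4% of endothelial-like cells had a UMI of Ldha. Cells holding both isoforms were thus common in microglia-like and astrocyte-like cells at the depth of these libraries.

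Slc16a3 encodes MCT4, a lactate transporter of glycolytic cells. It was at 25.7, 27.3 and 31.1 CPM in cortical microglia-like libraries (28.1 ± 2.77) and at 40.9, 39.7 and 39.1 CPM in hippocampal ones (39.9 ± 0.915). Cortical macrophage-like libraries, at 57.8, 3.04 and 10.2 CPM on 14 UMIs in all, lay on both sides of them, whereas in the hippocampus microglia-like cells were 2.51-fold above macrophage-like cells without overlap. Endothelial-like cells held 0.654 CPM on 14 UMIs and 1.94 CPM on 31 UMIs, and astrocyte-like cells 0.754 CPM on 13 UMIs and 2.20 CPM on 28 UMIs. Outside the compared classes, 59 cortical monocyte/granulocyte-like cells held 177 ± 13.5 CPM on 60 UMIs, the highest level of any named class.

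Set beside the other transporters of its family, Slc16a3 made up 37.0 ± 2.03% of the Slc16a1, Slc16a3 and Slc16a7 UMIs in cortical and 55.4 ± 1.44% in hippocampal microglia-like cells. Slc16a7, the high-affinity transporter MCT2, was at 36.2 and 20.9 CPM there. Endothelial-like cells held Slc16a1, the transporter MCT1, almost alone (99.9% and 99.7%), at 1497 ± 50.1 and 843 ± 48.4 CPM, against 11.4 and 11.3 CPM in microglia-like cells.

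Between regions, the log2 ratio from summed UMIs was set against the median of all genes, which was 0.12 in microglia-like, 0.17 in endothelial-like and 0.07 in astrocyte-like cells, and −0.09, 0.09 and −0.18 for the 10 genes. A gene was called when its levels differed at least 2-fold and no libraries overlapped. In microglia-like cells 2 of the 10 genes were called, Aldoc and Pgk1, both lower in the hippocampus, where 6.44% of all genes were called and 2.3% were lower. In endothelial-like cells Hk2 and Slc16a3 were higher and Pgk1 lower (10.2% of all genes called), and in astrocyte-like cells Slc16a3 was higher and Pgk1 lower (8.9%).

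Apart from Pgk1, the calls in these 3 classes concerned genes at low levels in the class. The ratio for Aldoc in microglia-like cells was −1.18 (−1.33 to −1.03). It was −0.75 without called doublets and −0.94 with a mitochondrial limit of 10%, short of 2-fold in both. The median astrocyte marker in microglia-like cells went from 0.692% in the cortex to 0.283% in the hippocampus of its astrocyte-like level. On the same measure Aldoc went from 0.670% to 0.343%. The summed level of the markers went from 337 to 256 CPM, and the highest of them, Slc1a3, stood at 5.19% and 4.71%. The part of astrocyte RNA in the Aldoc ratio was not tested. For Hk2 in endothelial-like cells the ratio was 1.34 (1.00 to 1.68), while the median microglial marker there rose from 1.19% to 2.64% of its microglial level. It was 0.88 without cortical replicate 2 and 0.41 with cells classed by their own markers, both short of 2-fold. The endothelial-like class did not hold the same kinds of cluster in both regions. In the hippocampus it included a cluster of 270 cells with a median of 1437.5 UMIs, which held Hk2 at 122 CPM and Slc16a3 at 16.8 CPM. A cortical cluster of 366 cells with a median of 1162 UMIs, closest to endothelial cells by its markers, held Hk2 at 115 CPM and Slc16a3 at 7.07 CPM, but stayed unnamed and was left out. In the other endothelial-like clusters Hk2 was at 6.28 and 10.4 CPM in the hippocampus and at 5.40 and 5.14 CPM in the cortex, and Slc16a3 at 1.16 and 1.06 CPM against 0.571 and 1.40 CPM. Both calls were made on the class as named, and were not made within matched clusters. Slc16a3 had ratios of 1.58 (0.62 to 2.60) in endothelial-like and 1.56 (0.56 to 2.63) in astrocyte-like cells, with wide intervals from few UMIs, and 0.32 in astrocyte-like cells classed by their own markers.

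Ldha was lower in the hippocampus in astrocyte-like cells, at −0.59 (−0.67 to −0.51), and in endothelial-like cells, at −0.52 (−0.57 to −0.46). It was also lower in pericyte-like cells, at −0.50 (−0.66 to −0.34). Libraries were apart in each case, and each ratio was short of 2-fold. Pericyte-like cells held endothelial markers at a median of 57.8% of their endothelial level in the cortex and 1.76% in the hippocampus. The part of endothelial RNA in the pericyte-like ratio was not tested. In microglia-like cells the ratio for Ldha was 0.03 (−0.03 to 0.08) with overlapping libraries, and −0.08 under median-of-ratios scaling. In endothelial-like cells, all listed hypoxia-linked genes but Vegfa had a lower mean in the hippocampus, by differing amounts. Libraries were apart for Adm, Ankrd37 and Ddit4 and overlapped for the others. Adm and Ankrd37 were at 132 and 135 CPM in the cortex and at 29.8 and 50 CPM in the hippocampus. Ddit4 went from 203 to 123 CPM and Egln3 from 0.281 to 0.128 CPM. Bnip3 went from 41.8 to 37.4 CPM, Hif1a from 100 to 88.4 CPM and Egln1 from 121 to 120 CPM. Vegfa rose from 2.62 to 4.27 CPM. Adm was also a leading gene of a cortical endothelial-like cluster of 133 cells. The part of these genes in the Ldha values was not tested.

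In microglia-like cells Slc16a3 was higher in the hippocampus, at 0.51 (0.39 to 0.62), as was Hk1, at 0.53 (0.33 to 0.73), and Ldhb lower, at −0.26 (−0.28 to −0.23), each without overlap. In astrocyte-like cells Hk1 was higher, at 0.49 (0.33 to 0.65), and Aldoc (−0.21), Pfkp (−0.26), Ldhb (−0.15) and Aldoa (−0.14) were lower, the libraries of Ldhb, Aldoc, Pfkp and Aldoa being apart by small margins. Endothelial-like cells showed no separation for Aldoa (0.05), Aldoc (0.12), Pfkp (−0.13) or Ldhb (0.41), and the ratio for Aldoc turned to −1.27 and that for Ldhb to −0.21 with cells classed by their own markers. In pericyte-like cells Hk2 was higher, at 3.04 (2.11 to 4.09), and Pgk1 lower, where 19.5% of all genes were called and the median microglial marker stood at 1.19% of its microglial level in the cortex and 5.15% in the hippocampus. In macrophage-like cells Hk1 was higher and Aldoc and Pgk1 lower (9.41% of all genes called), on 7 cortical UMIs for Hk1 and on 1 cortical library for Aldoc, at 335 CPM against 36.8 and 56.0 CPM in the other two. In neuron-like cells Hk1, Aldoa and Aldoc were higher and Pfkp, Pgk1 and Ldha lower in the hippocampus, 6 of the 10 genes beside the 30.9% of all genes called there, with 58 of the 122 cortical cells classed as neuron-like by their own markers.

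**Figure D5:**
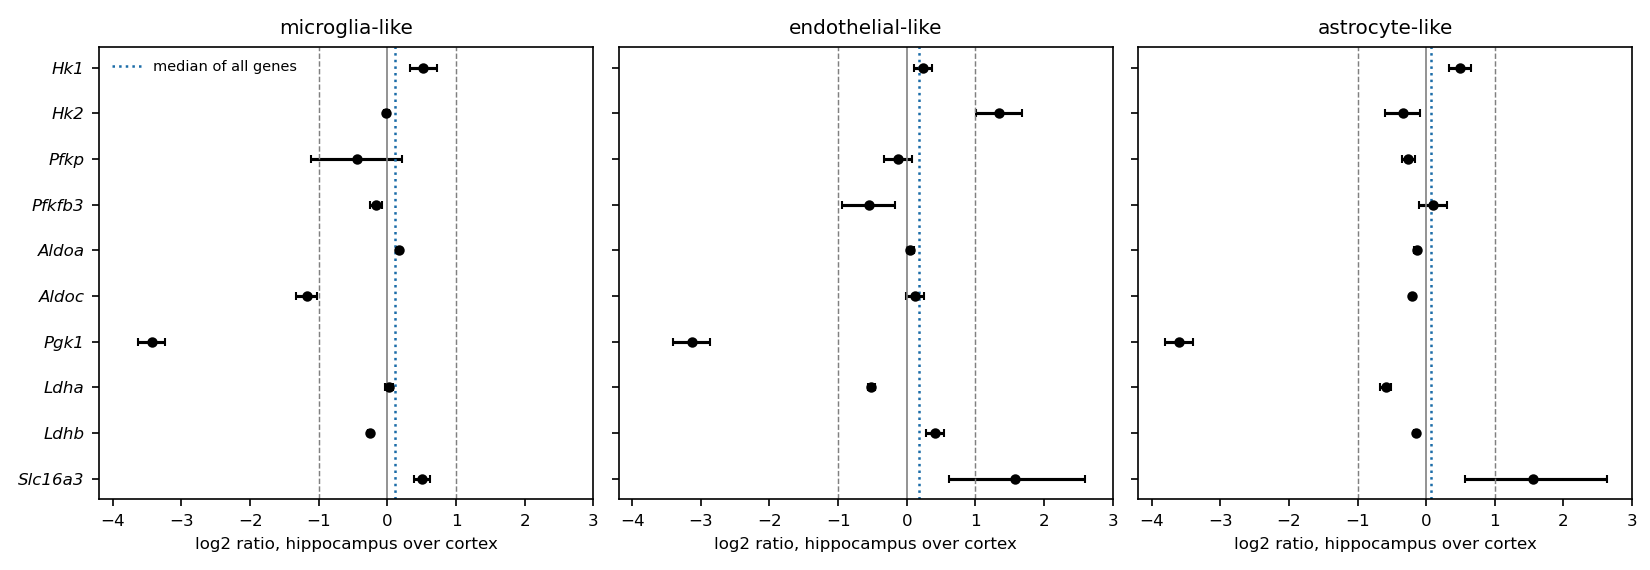
Log2 ratio of the hippocampus over the cortex for the 10 genes in the 3 largest classes, microglia-like on the left, endothelial-like in the middle and astrocyte-like on the right, from summed UMIs, with exact 95% intervals that cover counting error only. Dashed lines mark 2-fold and the dotted line the median of all genes, and Pgk1, whose gene list differs between the regions, stands far to the left at −3.43, −3.13 and −3.60.

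The wider pathway was described with a list of 35 further genes, of which 28 had enough UMIs in each region. In each region 9 of them were highest in 1 class by 2-fold, beside the 25.5% and 30.5% of all genes given above. Astrocyte-like cells held 6 of the 9 in the cortex, namely Pfkm, Pfkfb2, the enolases Eno1 and Eno2 and the pyruvate dehydrogenase kinases Pdk2 and Pdk4, and 4 in the hippocampus, namely Pfkm, Eno1, Pdk2 and Pdk4. Of all genes, 9.5% in the cortex and 5.38% in the hippocampus were highest in astrocyte-like cells by this rule. Eno1 was at 563 and 472 CPM in these cells and Pdk4 at 20.9 and 22.4 CPM.

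Endothelial-like cells held Slc16a1 in the cortex, and Slc16a1, the glucose transporter Slc2a1 and Bsg, the partner protein of the lactate transporters, in the hippocampus. Slc2a1 was at 1973 and 1689 CPM and Bsg at 20001 and 18329 CPM, and in the cortex the pericyte-like class, with its endothelial markers, held 1136 CPM and 10819 CPM. Microglia-like cells held Pdk1, at 76.6 and 86.5 CPM, where 5.12% and 3.94% of all genes were highest. The neuronal enolase Eno2 was highest in hippocampal neuron-like cells, at 20.8 CPM. No share of all genes was set beside the endothelial-like and neuron-like genes, which are named as a description only. Between regions none of 28 tested pathway genes was called in microglia-like cells, beside 6.44% of all genes. In endothelial-like cells 1 of 23 was called (Pdk4, from 2.47 to 6.33 CPM), beside 10.2% of all genes. In astrocyte-like cells 2 of 26 were called (Hk3, from 0.970 to 2.11 CPM, and Eno2, from 1.54 to 3.29 CPM), beside 8.9%. None of these counts was above the share of all genes.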

How the data were processed

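The authors deposited, for each of the 6 libraries, raw counts of UMIs per gene and barcode as a sparse matrix, with lists of genes and of barcodes already called as cells (at least 500 UMIs). Values in the deposited gene and barcode lists are names and identifiers, not measurements. The submitters' processing notes name Cell Ranger 5.0.1 with mm10, whereas the matrix headers name software 3.0.1 for the cortex and 3.1.0 for the hippocampus. Filters on UMIs and genes were then set after the study's methods. Cells with 250 to 6000 genes and under 25% mitochondrial UMIs were kept, libraries were integrated in each region over 2000 variable genes and 30 dimensions in Seurat 5.3.0 (R 4.3.3, Matrix 1.6.5), leaving the 10 genes and the pathway list out of the variable genes, and clustered at a resolution of 0.5. The scaling by Pearson residuals and SingleR were not used. Clusters were named from 16 marker lists, where a marker counted when found in at least 20% of cells and 2-fold above other cells, and at least 3 were needed. A cluster also stayed unnamed when another list held more of its 10 leading genes. So did a cluster of low depth with no marker of its closest class among them. The unnamed clusters of 239 cortical and 178 hippocampal cells each counted 12 endothelial markers and were left unnamed by their leading genes. For doublets, the barcodes of each library were ranked by Scrublet score (scanpy 1.11.5). The number called from the top was fixed by an assumed rate of 0.8% per 1000 barcodes, so it is not a measured doublet rate. Called doublets were kept, then left out as an alternative.

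UMIs were summed per class and library and divided by all UMIs of the class to give CPM and isoform shares, with Clopper-Pearson and Poisson intervals, with pandas 2.3.3, numpy 2.4.6, scipy 1.17.1 and matplotlib 3.10.9 under Python 3.11.15. Intervals cover counting error only. The ratio of regions used genes with at least 20 UMIs. Median UMIs per kept cell were 5800 to 5910 in the cortical and 6632 to 6914 in the hippocampal libraries. No test was made, since each region had 1 sample. The calls were tested on counts simulated for genes with many UMIs and with counting error alone. Genes with few UMIs and a wider spread between replicates were not covered. Coordinates come from GENCODE M21 and promoters from RefSeq on GRCm38.

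The 10 genes, the pathway, hypoxia and immediate early lists and the rules were chosen with earlier results of these data known. One gene of the pathway list, counted in the totals, and one sequence are not reported here. Named besides the 10 genes were their paralogs, pathway genes past a limit, and for each gene the 3 genes with the highest Pearson r of log2(CPM + 10) over the class profiles, among genes reaching 50 CPM. Alternatives were a resolution of 1, clustering with the 10 genes, classes from each cell's own markers, a mitochondrial limit of 10%, no called doublets, no barcodes shared between libraries, equal weight per cell, median-of-ratios scaling, a fold of 1.5 and leaving out each replicate.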

Additional observations from a re-analysis of the deposited data

Results flagged for a closer look

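For 2 genes, every library of one class moved one way between the regions and every library of another class moved the opposite way. These differences were not tested, since each region had 1 sample. Aldoa was lower in the hippocampus in astrocyte-like cells (log2 ratio −0.14) and higher in microglia-like cells (0.17), a difference of 0.3048 on the log2 scale. It was also higher in pericyte-like cells (0.70), a difference of 0.835 from astrocyte-like cells. Under median-of-ratios scaling the microglia-like ratio was 0.06 and the astrocyte-like ratio −0.20.

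Ldhb was higher in the hippocampus in pericyte-like cells (0.61) and lower in microglia-like (−0.26) and astrocyte-like cells (−0.15), which gave differences of 0.867 and 0.7587. The pericyte-like class held endothelial markers at a median of 57.8% of their endothelial level in the cortex and 1.76% in the hippocampus, and Ldhb was low in endothelial-like cells. The part of endothelial RNA in the pericyte-like differences of both genes was not tested.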

How the results depend on the processing

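The Aldoc share in hippocampal astrocyte-like cells moved from 86.3% to 86.8% with equal weight per cell, and the Ldhb share there from 89.0% to 89.4% without called doublets and 89.5% with equal weight per cell. The endothelial-like Ldhb share moved from 9.86% to 13.4% with cells classed by their own markers and to 7.71% without called doublets in the cortex, and from 17.2% to 12.4% without called doublets in the hippocampus. The number of the 10 genes past 2-fold between regions fell from 2 to 1 in astrocyte-like cells with cells classed by their own markers (1) and without called doublets (1), and in microglia-like cells with a mitochondrial limit of 10% (1) and without called doublets (1). Leaving out 1 replicate at a time gave Aldoc shares in astrocyte-like cells of 86.6 to 87.4% (cortex) and 86.2 to 86.4% (hippocampus), Hk2 shares in microglia-like cells of 97.6 to 98.2% and 96.8 to 97.2%, and Ldhb shares of 85.2 to 85.9% and 88.8 to 89.2% in astrocyte-like and 9.23 to 10.2% and 16.1 to 18.5% in endothelial-like cells. The genes highest in 1 class numbered 4 to 5 and 4 to 4, and those past 2-fold 2 to 2 in astrocyte-like and microglia-like and 2 to 3 in endothelial-like cells. Of the other values, 106 shares and 20 ratios moved by more than the spread between replicates and 336 and 220 did not, the largest move being the Ldhb share of cortical neuron-like cells, from 28.1% to 83.1% with cells classed by their own markers. No paired analysis was possible because the replicates are technical runs of 1 pooled suspension per region and no test was made. Depth limits the low values, such as Slc16a3 outside the myeloid classes and Pfkp in microglia-like cells.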

Other observations

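The astrocyte-like cluster of lowest depth in each region held the highest share of UMIs from Aldoc. In the cortex the level was 6982 CPM in a cluster of 876 cells with a median of 1674.5 UMIs, against 4235 CPM in the cluster of 1798 cells with a median of 7829 UMIs. In the hippocampus it was 7742 CPM at a median of 1560 UMIs and 3530 CPM at 7860 UMIs. Ldhb followed with 1849 against 1170 CPM and 2229 against 1012 CPM, and Aldoa with 1031 against 638 CPM and 1278 against 553 CPM. The Ldhb share hardly moved, at 86.1% against 85.9% and 90.0% against 88.8%. A small hippocampal astrocyte-like cluster of 93 cells was also shallow, with a median of 2906 UMIs, but went the other way. It had a median of 16.4% mitochondrial UMIs. It held Aldoc at 707 CPM, Ldhb at 164 CPM, Aldoa at 139 CPM and Pfkp at 203 CPM. The part of depth in these levels was not tested.

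Within endothelial-like cells, 133 cortical cells in a cluster with a median of 15608 UMIs held Pfkp at 89.6 CPM and Pfkfb3 at 29.9 CPM, against 17.3 and 5.50 CPM in the main cluster of 2321 cells, while Ldha was alike at 414 and 401 CPM. A cluster of 544 hippocampal endothelial-like cells held Pfkp at 34.1 CPM and Aldoc at 121 CPM, against 17.1 and 24.0 CPM in the cluster of 1320 cells. The Ldhb share was 22.6% against 12.2%.

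Over 12 profiles (6 classes in 2 regions), and among 6965 genes, those most like each gene by Pearson r of log2(CPM + 10) were as follows, as a description. The profiles share libraries and the class contrasts, so high values are common. Hk2 was most like Fgd2 (r = 0.991), Itgam and Fcrls, and Slc16a3 most like I830077J02Rik (0.984), Slc15a4 and Rgs10. Pfkfb3 was most like Mboat7 (0.973), Tmem144 and Usp2. Aldoc was most like Clu (0.993), Mt3 and Tst, and Pfkp most like Prdx1 (0.954), Srebf2 and Idi1. Ldhb was most like Clasp2 (0.962), Fbrsl1 and Tom1l1, and Ldha most like Ctla2a (0.923), Nkd1 and Ccnd3. Hk1 was most like Map1lc3b (0.952), Sun1 and Tgfb2, Aldoa most like Ikbip (0.975), Btd and Slc12a4, and Pgk1 most like Zfp445 (0.951), Timm8a1 and Dctn4. The Pgk1 profiles hold the difference between files given above, so the genes most like Pgk1 do not describe its pattern over classes alone.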
